A study of Saccharomyces cerevisiae with 11 samples.

Results

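The 8 core histone genes of Saccharomyces cerevisiae, HTA1, HTA2, HTB1, HTB2, HHT1, HHT2, HHF1 and HHF2, were taken by name from the R64 annotation, where they are 8 of 6002 nuclear protein-coding genes. They encode the 4 proteins of the nucleosome core in a pair of copies each: H2A (HTA1, HTA2), H2B (HTB1, HTB2), H3 (HHT1, HHT2) and H4 (HHF1, HHF2). Each gene lies head to head with the gene of its partner histone, so the 8 genes form 4 divergent pairs, HTB1-HTA1, HTA2-HTB2, HHF1-HHT1 and HHT2-HHF2, each with 1 promoter between the start codons. No measured value entered the rule that chose them, but earlier results of these data were known at the time.

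The study asked how processing of snoRNA precursors by the RNase III endonuclease Rnt1 is tied to the formation of their other end, and mapped Rnt1 and the nuclear cap-binding complex on chromatin as a step in this. ChIP-seq was made from a strain with 13 myc epitopes on Rnt1 (RNT1-myc13::NAT, 2 libraries) and from the strain labelled Cbp20-myc (2 libraries). For the latter, the genotype in the labels places the tag on the other subunit of the cap-binding complex (CBP80-myc13::NAT). The study's strain list gives CBP80-myc13::HIS, while its text names the Cbp20 gene as tagged. Both strains were MATa his3Δ1 leu2Δ0 met15Δ0 ura3Δ0, grew in YPD at 30 °C and were precipitated with an anti-myc antibody, and at least 4 immunoprecipitations were pooled for sequencing. The libraries are called Rnt1 and Cbp20 here as their labels name them. The study's methods state that experiments were biologically replicated, without saying it of these libraries, and the labels do not tell whether the 2 libraries of a protein came from separate cultures.

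What was deposited for each library is a list of peaks, intervals in which reads were enriched over the genome, with a start and an end but no height, so the depth behind a peak is unknown. Rnt1 replicates 1 and 2 had 1238 and 1741 peaks, against 3801 and 3648 peaks for Cbp20 replicates 1 and 2. Peaks covered 5.92 and 9.98% of the nuclear genome for Rnt1, against 23.1 and 21.6% for Cbp20. The shortest peak was 146 bp in replicate 1 of both proteins and 199 bp in replicate 2 of both, so that a library of each protein shared this feature of the peak lists, and comparisons are also given within these 2 sets. The difference in list size runs with every comparison of the 2 proteins below, and its part in them was not tested.

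Rnt1 cuts stem-loops in nascent RNA and is best known for processing pre-rRNA, small nuclear and small nucleolar RNA precursors, while the cap-binding complex, Cbp20 with Cbp80, joins the cap of RNA polymerase II transcripts while they are still being made. Histone genes are transcribed by RNA polymerase II in a burst around S phase, when new DNA has to be packed. In yeast the transcripts are polyadenylated like other mRNAs, and the paired genes are driven from activating elements in the middle of the shared promoter. Spt10 binds these elements, SBF also acts at histone promoters, and the HIR complex represses all of the pairs but HTA2-HTB2 outside S phase.

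For each pair, the part of the shared promoter that holds matches to the element bound by Spt10 is printed. No peak of any library reached it. The capitals mark matches to the Spt10 element, spelled here as TTCC, 6 bases of any kind and then TTCNC, searched on both strands, with 60 bases on either side. The plus strand is shown, so a match on the minus strand appears as its reverse complement, from GNGAA to GGAA.
HTA2-HTB2, chrII:236048-236182, plus strand: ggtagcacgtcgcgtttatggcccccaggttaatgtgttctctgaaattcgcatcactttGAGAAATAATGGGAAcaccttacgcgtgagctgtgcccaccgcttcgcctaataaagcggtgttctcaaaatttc
HHF1-HHT1, chrII:255884-256018, plus strand: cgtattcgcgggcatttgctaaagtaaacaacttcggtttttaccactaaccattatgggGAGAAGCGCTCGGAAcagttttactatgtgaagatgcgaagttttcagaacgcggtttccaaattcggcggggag
HTB1-HTA1, chrIV:915054-915211, plus strand: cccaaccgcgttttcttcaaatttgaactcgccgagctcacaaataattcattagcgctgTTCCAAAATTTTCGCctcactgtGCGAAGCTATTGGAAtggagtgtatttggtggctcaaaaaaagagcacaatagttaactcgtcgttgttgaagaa
HHT2-HHF2, chrXIV:576286-576420, plus strand: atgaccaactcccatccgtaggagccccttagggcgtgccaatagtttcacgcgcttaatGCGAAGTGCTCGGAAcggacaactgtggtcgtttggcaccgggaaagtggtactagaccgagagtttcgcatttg

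All 8 core histone genes carried a peak of Rnt1 and a peak of Cbp20 in both replicates, 1 peak per gene and library, and the peaks covered nearly the whole of each gene. A Rnt1 peak in both replicates was found on 8 of 8 histone genes, against 12.9% of the 6002 genes and 14.7% of the 651 genes no longer than the longest histone gene (411 bp). A Cbp20 peak in both replicates was likewise found on 8 of 8, against 44.9% of all genes and 33.2% of the short ones. Both counts stood above the background shares.

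Coverage was close to its upper limit. The share of a gene under peaks was 89.4 to 100% over the 16 values for Rnt1 (8 genes in 2 libraries), with a median of 100%, and 100% in all 16 for Cbp20. HTA2, HHT1, HHT2 and HHF1 were covered whole by Rnt1 in both replicates, which makes 4 of 8 histone genes, against 1.58% of all genes and 5.53% of the short ones. Cbp20 covered 8 of 8 whole, against 6.65% of all genes and 12.3% of the short ones. With a protein at 100% on every gene, the share cannot rank the genes, and the positions where the peaks begin and end hold most of what differs among them.

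HTA1 (YDR225W, chrIV:915530-915928, plus strand) encodes H2A. Its peak ran over chrIV:915535-916246 and chrIV:915499-916290 in Rnt1 replicates 1 and 2, against chrIV:915468-916303 and chrIV:915437-916285 in the Cbp20 replicates. The share covered was 98.7 and 100% for Rnt1, against 100 and 100% for Cbp20, so the groups overlapped. The Rnt1 peaks began 5 bp inside the coding region in replicate 1 and 31 bp upstream of the start codon in replicate 2, against 62 and 93 bp upstream for Cbp20. All 4 ended between 318 and 375 bp past the stop codon.

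HTA2 (YBL003C, chrII:235394-235792, minus strand), the second H2A gene, was covered at 100% in all 4 libraries. Its peaks ran over chrII:235053-235849 and chrII:234960-235836 for Rnt1, against chrII:234980-235898 and chrII:235022-235888 for Cbp20. They reached 57 and 44 bp upstream of the start codon for Rnt1, against 106 and 96 bp for Cbp20. Past the stop codon they reached 341 and 434 bp for Rnt1, against 414 and 372 bp for Cbp20. The Cbp20 peaks thus began further upstream, while the downstream ends of the 2 proteins overlapped. Cbp20 reached further upstream of both H2A genes than of any other histone gene.

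HTB1 (YDR224C, chrIV:914317-914712, minus strand), an H2B gene, had the lowest share of the 8. It was 100 and 89.4% for Rnt1, against 100 and 100% for Cbp20. The peaks ran over chrIV:914085-914771 and chrIV:914359-914744 for Rnt1, against chrIV:914038-914747 and chrIV:914252-914753 for Cbp20. Their downstream end differed between the replicates of each protein: Rnt1 reached 232 bp past the stop codon in replicate 1 and stopped 42 bp before it in replicate 2, against 279 and 65 bp past it for Cbp20. HTB1 was the only one of the 8 genes with a peak that ended inside the coding region.

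HTB2 (YBL002W, chrII:236492-236887, plus strand), the other H2B gene, was covered at 96.5 and 99.2% for Rnt1, against 100 and 100% for Cbp20. The mean was 97.9 ± 1.96% for Rnt1, against 100 ± 0% for Cbp20 (SD, n = 2 each), and the groups did not overlap. The peaks ran over chrII:236506-237131 and chrII:236495-237339 for Rnt1, against chrII:236454-237343 and chrII:236456-237359 for Cbp20. The missing bases lay at the start of the gene, since Rnt1 peaks began 14 and 3 bp inside it and Cbp20 peaks 38 and 36 bp upstream of it.

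HHT1 (YBR010W, chrII:256331-256741, plus strand) encodes H3 and had the widest peaks of the 8 genes. It was covered at 100% in all libraries by peaks over chrII:256306-257449 and chrII:256300-257849 for Rnt1, against chrII:256304-257911 and chrII:256285-257951 for Cbp20. They began 25 and 31 bp upstream of the start codon for Rnt1, against 27 and 46 bp for Cbp20. Past the stop codon they ran for 708 and 1108 bp for Rnt1, against 1170 and 1210 bp for Cbp20. These peaks entered IPP1, the gene of inorganic pyrophosphatase, which is transcribed towards HHT1 and ends 370 bp away. IPP1 was covered at 39.1 and 85.4% by Rnt1, against 92.6 and 97.2% by Cbp20, so the long reach cannot be assigned to HHT1 alone.

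HHT2 (YNL031C, chrXIV:575640-576050, minus strand), the second H3 gene, was covered at 100% in all 4 libraries. Its peaks ran over chrXIV:575136-576091 and chrXIV:575097-576128 for Rnt1, against chrXIV:575076-576095 and chrXIV:575076-576110 for Cbp20. They reached 41 and 78 bp upstream of the start codon for Rnt1, against 45 and 60 bp for Cbp20, which overlap. They reached 504 and 543 bp past the stop codon for Rnt1, against 564 and 564 bp for Cbp20.

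HHF1 (YBR009C, chrII:255373-255684, minus strand), an H4 gene, was also covered at 100% in all 4 libraries. The peaks ran over chrII:255085-255711 and chrII:255118-255708 for Rnt1, against chrII:255059-255715 and chrII:255130-255728 for Cbp20. They began 27 and 24 bp upstream for Rnt1, against 31 and 44 bp for Cbp20. They ended 288 and 255 bp past the stop codon for Rnt1, against 314 and 243 bp for Cbp20, and these overlap.

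HHF2 (YNL030W, chrXIV:576727-577038, plus strand), the second H4 gene, was covered at 96.8 and 98.4% for Rnt1, against 100 and 100% for Cbp20. The mean was 97.6 ± 1.13% for Rnt1, against 100 ± 0% for Cbp20 (SD, n = 2 each), without overlap. Its peaks ran over chrXIV:576737-577480 and chrXIV:576732-577497 for Rnt1, against chrXIV:576693-577500 and chrXIV:576682-577537 for Cbp20. Rnt1 peaks began 10 and 5 bp inside the gene and Cbp20 peaks 34 and 45 bp upstream of it. They ended 442 and 459 bp past the stop codon for Rnt1, against 462 and 499 bp for Cbp20.

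**Figure D1:**
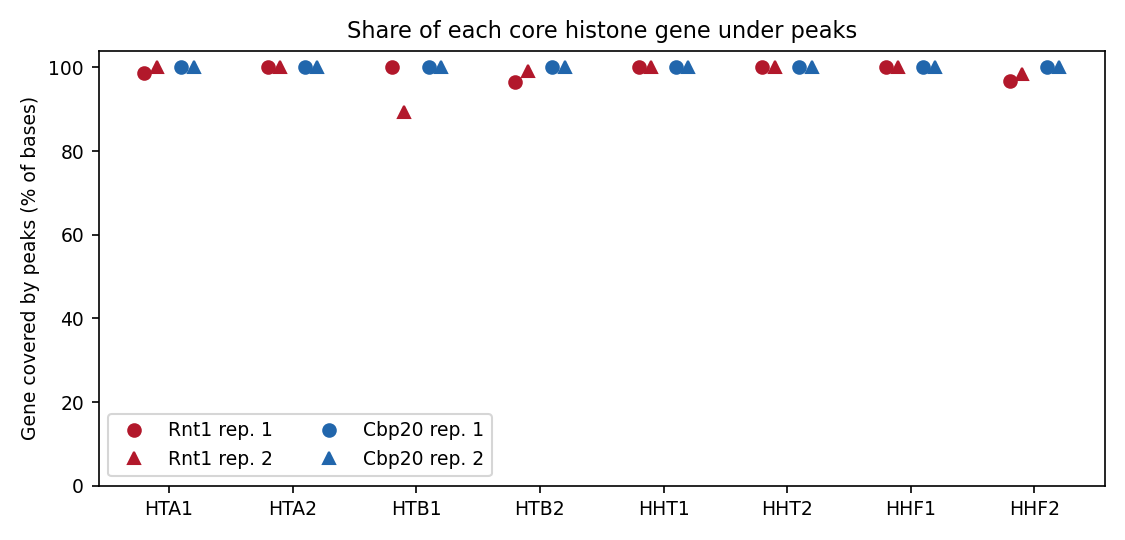
Share of bases of each core histone gene under peaks (percent), by library, with Rnt1 replicates (red) left of Cbp20 replicates (blue). All Cbp20 points sit at 100%, and the lowest Rnt1 point is HTB1 in replicate 2 at 89.4%.

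HTB2 and HHF2 were the 2 of 8 histone genes whose Rnt1 shares were both below the Cbp20 shares, with Rnt1 minus Cbp20 differences of −2.15 and −2.40 percentage points. None could have them above, since Cbp20 covered 100% of every histone gene. At HTB1 the lower Rnt1 mean came from replicate 2 alone. Over the 6002 genes the Rnt1 shares were both lower for 40.4% and both higher for 0.483%. The exact two-sided permutation test over the 4 libraries gave p = 0.333 for each of the 2 genes, the smallest that 2 libraries against 2 can give, so no difference could pass a threshold of 0.05. The median difference over the 8 genes was −0.313 points, beside −4.27 points over the 6002 genes. Most of those 6002 genes have no Rnt1 peak, and 2 of 8 is not far from 40.4%, so nothing is read from this count. Within replicate 1 of both proteins, and within replicate 2 of both, the Rnt1 share was lower on 3 genes and higher on 0. The 0 was fixed by the full Cbp20 coverage.

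Rnt1 peaks tended to begin later than Cbp20 peaks. The coordinate of the upstream end relative to the start codon was −14 to 78 bp for Rnt1 (median 29 bp, positive values upstream) and 27 to 106 bp for Cbp20 (median 44.5 bp). The first base of the gene lay under a peak in 11 of 16 combinations of gene and library for Rnt1 and 16 of 16 for Cbp20. Both Rnt1 peaks began downstream of both Cbp20 peaks on HTA1, HTA2, HTB2, HHF1 and HHF2, 5 of 8 genes. The Rnt1 minus Cbp20 differences in mean reach were −64.5, −50.5, −45.5, −12 and −47 bp (p = 0.333 each, exact two-sided permutation test). Among the 749 genes with a peak in all 4 libraries this was so for 80.5%, so the histone genes did not exceed the background here. Within each of the 2 sets of libraries Rnt1 began later on 7 of 8 genes. Their own position differed from that of the 749: the median reach past the start codon was 26.75 bp for Rnt1 and 38.75 bp for Cbp20 on histone genes, beside −156.5 and 26 bp on the 749, a set not matched for gene length.

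**Figure D2:**
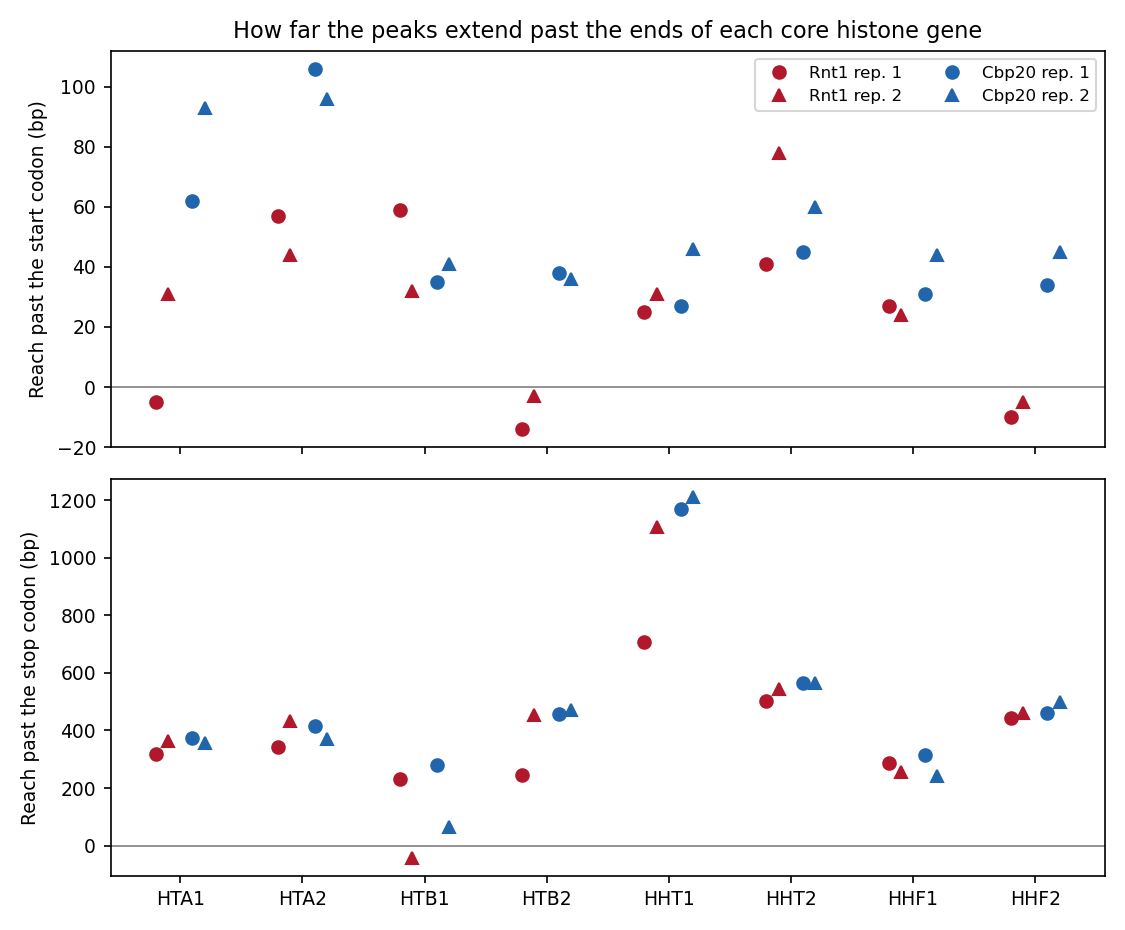
Distance in bp that the peak of each histone gene extends past the start codon (upper panel) and past the stop codon (lower panel), with Rnt1 replicates (red) left of Cbp20 replicates (blue). Values below 0 end inside the gene. Rnt1 lies below 0 at the start codon on HTA1 (replicate 1), HTB2 and HHF2, and at the stop codon on HTB1 (replicate 2).

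Past the stop codon the peaks went further than past the start codon on 7 of 8 genes in every library. On HTB1 this held in 3 of 4 libraries, with 41 bp past the start codon and 65 bp past the stop codon in Cbp20 replicate 2 and the stop codon not reached in Rnt1 replicate 2. The reach was −42 to 1108 bp for Rnt1 (median 398 bp) and 65 to 1210 bp for Cbp20 (median 435 bp). The last base of the gene was under a peak in 15 of 16 combinations for Rnt1 and 16 of 16 for Cbp20. The centre of the peak lay downstream of the centre of the gene by −37 to 538.5 bp for Rnt1 and by 12 to 582 bp for Cbp20. HTB2, HHT1, HHT2 and HHF2, 4 of 8 genes, had both Rnt1 ends short of both Cbp20 ends, beside 56.7% of the 749 genes, and no histone gene had the opposite order. Without Cbp20 replicate 2 the count was 7 of 8. Within the sets it was 8 of 8 for replicate 1 of both proteins and 5 of 8 for replicate 2. With fewer libraries the rule is looser, and its share over the 749 genes was not computed. The gene medians were 367.75 bp for Rnt1 and 428.5 bp for Cbp20 on the histone genes, beside 100 and 202 bp on the 749, a set not matched for gene length or neighbours. Several histone peaks ran on into a facing neighbour, as given below, so the reach cannot be assigned to the histone genes alone.

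Most histone peaks were wider than the median peak of their library. Widths were 386 to 1550 bp for Rnt1 (median 779 bp), where the median peak of the library was 349 and 444 bp in replicates 1 and 2. For Cbp20 they were 502 to 1667 bp (median 861.5 bp), where the library medians were 484 and 498 bp. HTB1 was the exception, with 386 bp in Rnt1 replicate 2, below the median of that library, and 502 bp in Cbp20 replicate 2, about at it. The annotation gives only start and stop codons, so how much of a peak past the stop codon lies over transcribed sequence was not measured.

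In several places a histone peak also covered a neighbour. The peak of HTA2 reached UTP20, that of HHT1 reached IPP1, that of HHT2 reached SIW14 and that of HHF2 reached KTR5 in all 4 libraries, and that of HTB2 reached ECM15 in 3 of 4, Rnt1 replicate 1 being the exception. All these neighbours face the histone gene end to end, at 276, 370, 288, 166 and 265 bp from its stop codon. UTP20, a ribosome biogenesis factor gene, was covered at its edge, at 0.869 and 2.11% for Rnt1, against 1.84 and 1.28% for Cbp20. KTR5, the gene of a putative mannosyltransferase, was covered at 17.6 and 18.7% for Rnt1, against 18.9 and 21.2% for Cbp20. ECM15 was covered at 0 and 59.4% for Rnt1, against 60.6 and 65.7% for Cbp20, and SIW14, the gene of an inositol pyrophosphate phosphatase, at 25.5 and 30.1% for Rnt1, against 55.8 and 32.6% for Cbp20. The peaks of HTA1, HTB1 and HHF1 ended before the next gene in every library. No annotated non-coding gene lay within 2000 bp of a histone pair.

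No single peak spanned a histone pair. A peak holding both genes of a pair was found for 0 of 4 pairs in either protein, and for 0% of the 1527 divergent pairs of nuclear protein-coding genes for Rnt1 and 0% for Cbp20, so this count does not set the histone pairs apart. Peaks of Rnt1 on both genes in both replicates were present for all 4 histone pairs, against 2.36% of the 1527 pairs. Peaks of Cbp20 on both genes were present for all 4, against 25.9%. Under the looser rule, in which a peak holds the promoter and touches both genes, the count was again 0 of 4 for each protein. The background under that rule was 5.56% of the 36 pairs with Rnt1 on both genes and 0.253% of the 395 pairs with Cbp20 on both, and 0% for each among pairs with a promoter of at least 646 bp, the length of the shortest histone promoter.

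Instead, each promoter had a peak edge near either start codon and a long interval without peaks between them. HTA2-HTB2 (chrII:235793-236491, 699 bp) was covered at 8.15 and 6.29% by Rnt1, against 20.6 and 18.9% by Cbp20. HHF1-HHT1 (chrII:255685-256330, 646 bp) was covered at 8.05 and 8.51% by Rnt1, against 8.98 and 13.9% by Cbp20. HTB1-HTA1 (chrIV:914713-915529, 817 bp) was covered at 7.22 and 7.71% by Rnt1, against 11.9 and 16.4% by Cbp20. The Rnt1 shares and the Cbp20 shares did not overlap at any of these promoters. At HHF1-HHT1 the upper Rnt1 and the lower Cbp20 share, 8.51 and 8.98%, nearly met. HHT2-HHF2 (chrXIV:576051-576726, 676 bp) was covered at 6.07 and 11.5% by Rnt1, against 11.7 and 15.5% by Cbp20, where the upper Rnt1 and the lower Cbp20 value nearly met.

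The mean promoter share, Rnt1 minus Cbp20, differed by −12.5 points at HTA2-HTB2, −3.17 points at HHF1-HHT1, −6.67 points at HTB1-HTA1 and −4.81 points at HHT2-HHF2 (p = 0.333 each, exact two-sided permutation test). Without Cbp20 replicate 2 the differences at HHF1-HHT1, HTB1-HTA1 and HHT2-HHF2 were −0.697, −4.41 and −2.88 points, and at HHT2-HHF2 it was −2.07 points without Rnt1 replicate 1. Within both sets of libraries Rnt1 was lower at 4 of 4 promoters. This, and the sign with 1 library left out, follow from the lack of overlap and are no separate check. Rnt1 was below Cbp20 in both replicates at 4 of 4 histone promoters, beside 13.4% of the 1527 divergent promoters, most of which have no peak, and 52.8% of the 36 with Rnt1 on both genes, a set that holds the histone pairs. At the histone pairs the share holds only the parts of the gene peaks upstream of the start codons. It is therefore not a result separate from the peak starts above, where the count was 5 of 8 genes, beside 80.5% of the 749. The median promoter share of the histone pairs was 7.87% for Rnt1 and 13.9% for Cbp20, beside 8.93 and 12.4% for the other 32 pairs with Rnt1 on both genes, which spread widely in the plot of promoter share against length.

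**Figure D3:**
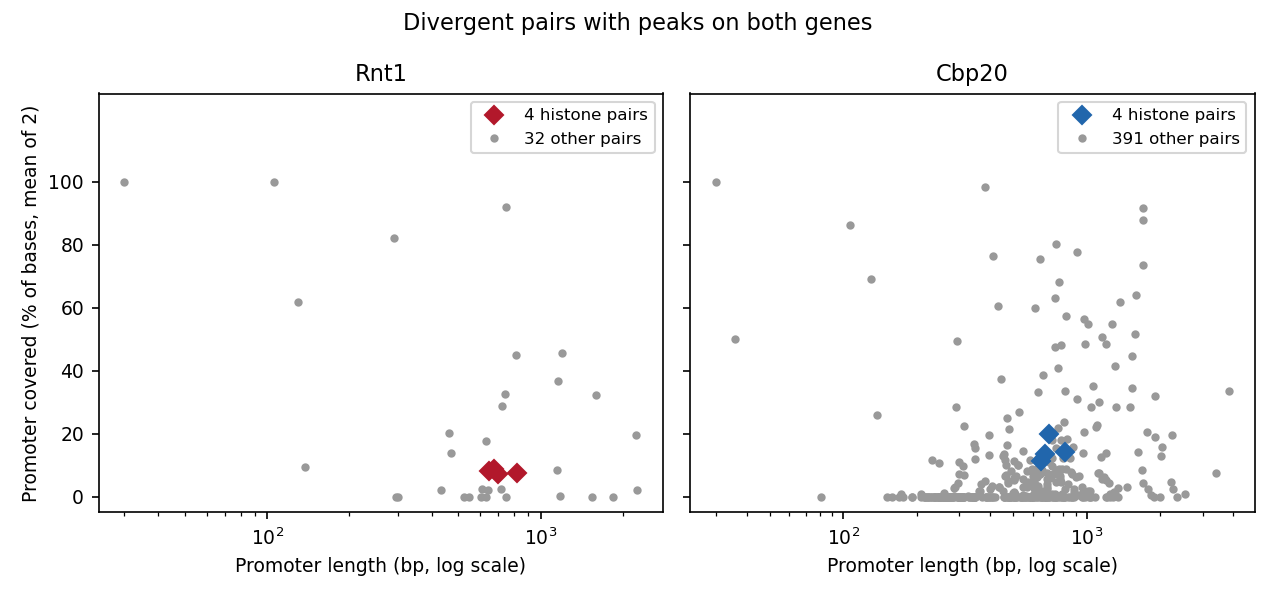
Share of the promoter under peaks (percent, mean of both replicates) against promoter length (bp, log axis) for divergent pairs with peaks on both genes, for Rnt1 (left) and Cbp20 (right). Coloured diamonds are the 4 histone pairs and grey dots the other pairs. The diamonds lie at 7.22 to 8.80% for Rnt1 and 11.5 to 19.7% for Cbp20, within the spread of the grey dots.

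The interval free of peaks in all 4 libraries was 555 bp at HTA2-HTB2 (chrII:235899-236453), 556 bp at HHF1-HHT1 (chrII:255729-256284), 665 bp at HTB1-HTA1 (chrIV:914772-915436) and 553 bp at HHT2-HHF2 (chrXIV:576129-576681). These are 79.4, 86.1, 81.4 and 81.8% of the promoters. The Spt10 elements printed above lay inside them. They matched at chrII:236108-236122, chrII:255944-255958, chrIV:915114-915128, chrIV:915137-915151 and chrXIV:576346-576360, and HTB1-HTA1 was the pair with 2 matches. The element was present in 4 of 4 histone promoters, against 4.58% of the 1527 divergent promoters and 8.29% of the 579 of at least 646 bp. The element is known from histone promoters, so its presence in them was given beforehand and serves here only to place it relative to the peaks.

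The SBF element, CNCGAAA on either strand, matched 3 times in HTB1-HTA1 and 2 times in HHT2-HHF2, all outside peaks, and did not match in the other promoters. It was found in 26.8% of all divergent promoters and 39.9% of those of at least 646 bp. TATAAA matched in 3 of 4 histone promoters, HTA2-HTB2 being the exception, against 60.3 and 82.7% of the same sets. Of its 10 matches, 3 lay within 9 bp of the start codon of HHT1 or HTA1 under peaks of 3 or 4 libraries, and the others lay in the peak-free interval. A match is a string of letters and was not tested as a binding site.

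The copies of each histone are alike enough that short reads could fail to map to 1 place, and reads without a unique position were removed before peaks were called. The coding sequences were 93.7% identical for HTA1 and HTA2, 87.9% for HTB1 and HTB2, 93.2% for HHT1 and HHT2 and 97.4% for HHF1 and HHF2. The longest exact shared run was 65, 35, 74 and 80 bp. The longest, in the H4 genes at chrII:255515-255594 (HHF1, minus strand) and chrXIV:576817-576896 (HHF2, plus strand), is shown because it is the stretch in which a read can least be assigned to 1 of the copies.
HHF1 and HHF2, shared coding run: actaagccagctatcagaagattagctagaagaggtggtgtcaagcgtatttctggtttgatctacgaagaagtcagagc

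Windows of 36 bp occurring once in the genome made up 90.1% of HTA1 and HTA2, 100% of HTB1 and HTB2, 79.3% of HHT1 and HHT2 and 66.4% of HHF1 and HHF2. Windows of 50 bp occurring once in the genome made up 95.4% of HTA1 and HTA2, 100% of HTB1 and HTB2, 87.8% of HHT1 and HHT2 and 78.7% of HHF1 and HHF2. With windows of 75 bp the shares were 100, 100, 100 and 97.5%, and the promoters were unique at each of these lengths. The peaks of HHF1 and HHF2 ran through the printed run without a break in all 4 libraries. Read length is not given in the sources used here, so the number of reads lost in these runs is unknown. The windows treat reads singly, while the reads were paired-end, and placement by the mate was not assessed.

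Other genes of chromatin assembly and histone expression are given for reference. The H2A variant gene HTZ1 was covered at 0 and 86.7% by Rnt1, against 100 and 100% by Cbp20. The linker histone gene HHO1 was covered at 0 and 49.3% by Rnt1, against 90.3 and 92.4% by Cbp20, and CSE4, which encodes the centromeric H3 variant, had no peak. Each Rnt1 value above 0 came from replicate 2, so 0 of these 3 genes had Rnt1 in both replicates, against 2 of 3 for Cbp20. Of 10 chaperone and assembly factor genes, 0 had Rnt1 in both replicates and 7 had Cbp20, and of 11 regulators of histone gene transcription, 0 had Rnt1 and 3 had Cbp20, with 7 lacking any peak. Over all genes the shares were 12.9% for Rnt1 and 44.9% for Cbp20, so 0 of 10 or 11 is near the background for Rnt1.

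Genes of glycolytic enzymes, among the most strongly transcribed genes in glucose medium, were closer to the histones: 14 of 16 had Rnt1 and 16 of 16 Cbp20 in both replicates. Their median share was 98.9% for Rnt1 and 100% for Cbp20, beside 99.7 and 100% for the histone genes. The divergent pair GAL1 and GAL10, repressed by glucose, had a promoter of similar length, 668 bp, and no peak on either gene or on the promoter. Peaks on both genes in both replicates were found for only 2.36% of the 1527 divergent pairs with Rnt1 and 25.9% with Cbp20. Transcription was not measured here, and its part in the peaks was not tested. The 5 genes with shares closest to the histone mean (99.0 and 98.4% for Rnt1, 100 and 100% for Cbp20) over the 4 libraries were RPL5, EGT2, SCW4, RPL17A and CUP9, with mean absolute differences of 0.152, 0.167, 0.185, 0.251 and 0.306 points. RPL5 and RPL17A encode proteins of the large ribosomal subunit, EGT2 and SCW4 cell wall proteins and CUP9 a transcriptional repressor. The shares of these genes all lie near the upper limit, so their order does not rank how alike they are to the histone genes.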

How the data were processed

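Of the 11 samples of the series, the 4 ChIP-seq libraries were used, and the other 7, RNA-seq, are not analysed here. The authors aligned paired-end reads to sacCer3 with Bowtie2 and kept uniquely mapped reads with a mapping quality of at least 30. Peaks were called with MACS2 at q below 0.05. The peak counts that the study gives, 1238 for Rnt1 and 3801 for Cbp20, are those of replicate 1. How the lists of replicate 2 were called is not stated separately. Software versions and the use of input as background are not given in the sources used here. The deposited lists hold peak positions only (chromosome, start, end; unit: bp), with no score, so no interval for counting error can be given.

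Peaks were read as BED intervals and set against the R64 annotation, which gives start and stop codons. Per gene, the bases under peaks were counted (at least 1 bp for a peak on a gene). A promoter is the interval between start codons, and background pairs are all neighbouring divergent nuclear protein-coding genes. An exact permutation test over the 4 libraries was used per gene and pair. Sequences came from the RefSeq R64 genome. The interval code was tested on simulated data. Python 3.11.15, numpy 2.4.6 and matplotlib 3.10.9 were used.

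The members and lists were chosen with earlier results of these data known, and the measures of peak ends, centres and unique windows were added after the peaks were seen. All 8 members were named in every library, with the variant and linker histone genes, GAL1 and GAL10, neighbours reached by a histone peak and the 5 genes of most similar coverage. Regulators and chaperones were to be named where Rnt1 was found in both replicates, which none met. The alternatives were other overlap rules, gene ends, joined gaps, the wider peaks only and each replicate left out.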

Additional observations from a re-analysis of the deposited data

How the results depend on the processing

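No difference other than 0 changed its sign in the alternatives run. This was largely given beforehand, since Cbp20 covered every histone gene whole and both Rnt1 promoter shares lay below both Cbp20 shares. With each gene extended by 100 bp on either side, the median share covered was 85.5% for Rnt1 and 89.5% for Cbp20 and the median difference −7.68 points, since the extension takes in promoter bases without peaks. HHT2, at 0 points otherwise, was at 1.15 points there. Leaving out each library in turn put the median difference between −0.313 and 0 points and the median Rnt1 share between 99.7 and 100%. The peak of HTB1 in Rnt1 replicate 2, at 386 bp, was lost when only the wider 50% of the peaks of each library were kept, which left 7 genes with Rnt1 in both replicates and a difference of −50 points at HTB1. No peak spanned a pair under any alternative. Alternatives chosen after seeing the data counted genes whose Rnt1 reach fell short of that of Cbp20. With 1 library left out the count was 5 to 7 past the start codon and 4 to 7 past the stop codon. The 7 at the stop codon was without Cbp20 replicate 2. No background share was computed for these counts or for those within sets of libraries. The Rnt1 minus Cbp20 promoter share stayed negative at all 4 pairs without any 1 library, a sign fixed by the lack of overlap. At HHF1-HHT1 it was −0.697 points without Cbp20 replicate 2. Within the libraries that share a shortest peak of 146 or 199 bp, also chosen after seeing the data, the median Rnt1 share was 100% and the median difference 0 in both, and Rnt1 ended short of Cbp20 past the stop codon on 8 and 5 genes. No paired analysis was possible because a replicate number is given in the labels for 1 library per protein only, and with 2 such sets a paired test could not pass a threshold of 0.05. Limits: 2 libraries a protein, no peak heights and unknown depth. The samples of the series include no ChIP of an untagged strain and no input library, so unspecific precipitation was not assessed.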
